A study of Sus scrofa with 20 samples.

Results

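HNF4A and 5 genes of proximal tubule transport and gluconeogenesis (SLC2A2, SLC7A9, SLC7A7, SLC37A4 and PCK1) were followed in pig kidney after neurologic death (ND). They were chosen by the gene symbol of the array's annotation, which gave 9 of the 23999 probe sets tested and 6 of the 6765 genes with a symbol of their own. HNF4A, SLC7A7 and SLC37A4 had 2 probe sets each and the others had 1, and the brighter probe set stands for a gene unless stated. Kidney RNA came from 20 animals, with 1 array for each. The 10 control animals underwent burr hole, catheter placement and anaesthesia. The 10 ND animals underwent the same procedure, and a subdural balloon was inflated until ND was established. Animals of both groups were ventilated for 6 h and received saline boluses when arterial pressure was low, before kidney pieces were frozen. The sources used here do not give strain, sex or age, and names such as ND_47 and Control_02 are the labels' own. Values are log2 signals per probe set. Differences are ND minus control, adjusted p-values are limma's after Benjamini-Hochberg correction across all 23999 probe sets, and a gene was called at an adjusted p under 0.05.

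The proximal tubule takes up nearly all the glucose and amino acids that the glomerulus filters, and it is, with the liver, a site where the body makes new glucose. HNF4A is a nuclear receptor that acts as a transcription factor in the liver, gut and proximal tubule, where it is known for maintaining the genes of the differentiated epithelium. SLC2A2 (GLUT2) lets glucose leave the cell across the basolateral membrane. SLC7A9 is the light chain of the brush border exchanger for cystine and dibasic amino acids, which is mutated in cystinuria, and SLC7A7 is the light chain of the basolateral exporter of dibasic amino acids, which is mutated in lysinuric protein intolerance. PCK1 makes phosphoenolpyruvate from oxaloacetate, the committed step of gluconeogenesis, and SLC37A4 carries glucose-6-phosphate into the endoplasmic reticulum for the last step.

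The labelled tissue was checked against its markers. All 8 measured proximal tubule markers (SLC3A1, FBP1, LRP2, SLC22A6, MIOX, SLC22A8, AQP1 and PDZK1) read above the background level of 2.79 on every array, with group means from 8.50 ± 1.22 (SD, n = 10) for SLC22A6 in ND to 14.92 ± 0.17 (SD, n = 10) for FBP1 in controls. Array medians lay between 5.09 and 5.35. The array of ND_47 stood apart, with a mean correlation of 0.966 with the other arrays against 0.983 to 0.987 for the rest. It held the lowest ND value of HNF4A, SLC7A9, SLC7A7, SLC37A4 and PCK1. ND_22, whose HNF4A was the next lowest, was left out together with it in 1 added comparison.

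All 6 genes were lower in ND kidneys, by 1.58-fold for PCK1 to 3.54-fold for SLC2A2, and all 6 passed the test. Of all genes, 9.99% were called, 4.55% lower and 5.44% higher in ND, and of all probe sets 7.13% were called, 3.33% lower. Since the members were chosen with their differences known, nothing is read from the count. Without ND_47 all 6 also passed, at -0.69 for HNF4A (adjusted p = 0.0130), -1.65 for SLC2A2 (0.0157), -0.92 for SLC7A9 (0.0146), -0.66 for SLC7A7 (0.0460), -0.73 for SLC37A4 (0.00503) and -0.58 for PCK1 (0.0330). In whole tissue, fewer cells of a type and less RNA per cell cannot be told apart.

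HNF4A ranged in ND from 10.62 through a median of 12.12 to 12.59, and in controls from 12.61 through 12.70 to 13.06. The groups did not overlap: the highest ND animal, ND_01, lay just under the lowest control, Control_199. Such a separation, with every ND value below every control value, was seen for 0.325% of genes. The means were 11.92 ± 0.66 (SD, n = 10) and 12.76 ± 0.13 (SD, n = 10), a difference of -0.84 ± 0.21 (SE; adjusted p = 0.0174). The dimmer HNF4A probe set differed by the same amount, -0.84 ± 0.27 (SE), but did not pass (adjusted p = 0.0677), and its groups overlapped, with 8 of 10 ND animals below the lowest control. The 8 ND animals other than ND_47 and ND_22 carried the HNF4A difference too, at -0.56 (adjusted p = 0.00519).

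SLC2A2, the glucose exit carrier, showed the largest difference of the members. Its values ran from 4.65 through 7.04 to 8.02 in ND and from 6.94 through 8.78 to 9.31 in controls. The lowest animal was ND_86, not ND_47, and the overlap with ND came from Control_156 and Control_157, since 8 controls lay above every ND animal. The means were 6.79 ± 1.11 (SD, n = 10) and 8.61 ± 0.74 (SD, n = 10), a difference of -1.82 ± 0.41 (SE; adjusted p = 0.0104).

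Both amino acid transporter light chains fell. SLC7A9 ranged from 7.94 through 10.13 to 10.50 in ND and from 10.28 through 10.94 to 11.36 in controls, so that all controls but Control_156 lay above every ND animal. Its difference was -1.13 ± 0.28 (SE), or 2.18-fold (adjusted p = 0.0206). SLC7A7 ranged from 7.69 through 8.85 to 9.35 in ND and from 9.03 through 9.34 to 10.43 in controls. Here 6 ND animals lay below the lowest control and 5 controls above the highest ND animal, ND_86. The difference was -0.78 ± 0.21 (SE; adjusted p = 0.0331). This call did not hold without ND_92, ND_100, Control_02, Control_155, Control_156 or Control_157 left out one at a time (highest adjusted p 0.0590). The other SLC7A7 probe set read between 1.82 and 2.01 on all arrays, below background, and gives no measure of the gene.

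Of the gluconeogenesis members, SLC37A4 had 2 probe sets that were both called. The brighter ranged from 10.77 through 12.19 to 12.45 in ND and from 12.10 through 12.84 to 13.11 in controls, and differed by -0.86 ± 0.19 (SE; adjusted p = 0.00862). Control_199 was the 1 control within the ND range. The dimmer ranged from 9.83 through 11.46 to 11.86 in ND and from 11.996 through 12.37 to 12.72 in controls, with no overlap, and differed by -1.09 ± 0.20 (SE; adjusted p = 0.00235). Of all probe sets, 0.292% had every ND value below every control value. PCK1, among the brightest 0.4% of probe sets, ranged from 13.17 through 13.71 to 14.51 in ND and from 14.28 through 14.59 to 14.79 in controls. Its difference was -0.66 ± 0.17 (SE; adjusted p = 0.0222). Without ND_47 and ND_22 the calls of PCK1 (-0.53, adjusted p = 0.0592) and SLC7A7 (-0.68, adjusted p = 0.0594) were lost and 4 of 6 genes passed.

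**Figure D1:**
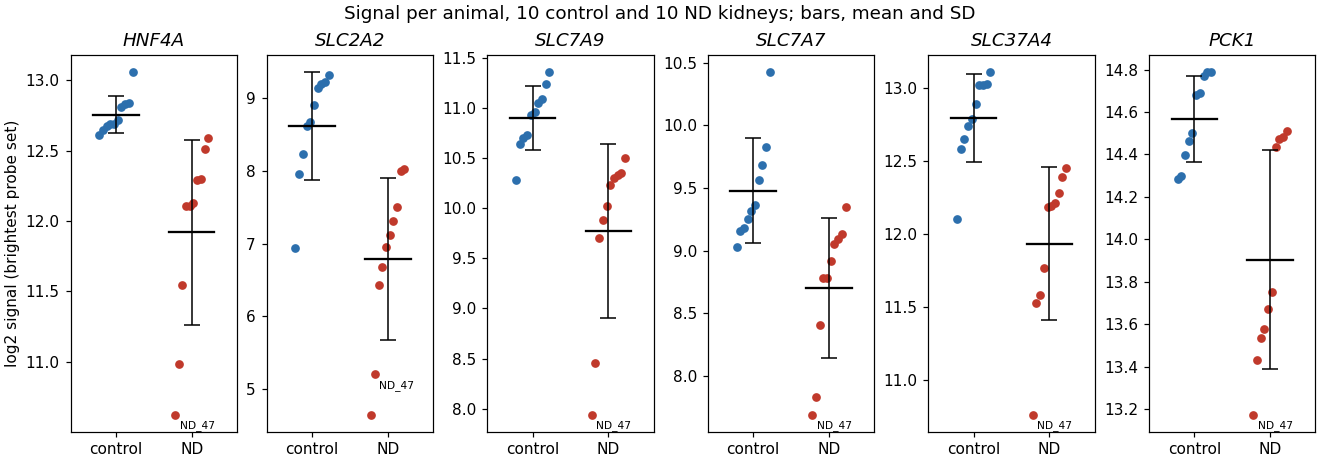
Log2 signal of the brightest probe set of each gene (vertical axis, a scale of its own per panel) in 10 control animals (blue) and 10 ND animals (red), 1 point per animal ordered by value, with mean and SD bars. HNF4A does not overlap between groups, the other 5 genes do, and ND_47 is the lowest ND animal in every panel but that of SLC2A2.

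Animal numbers were unevenly spread between groups, with 7 ND animals but 1 control numbered up to 100. With a term for that split, which rests within controls on Control_02, all 6 differences stayed negative (-0.50 for PCK1 to -1.80 for SLC2A2) and none was called (6 of 6 at an unadjusted p under 0.05). The limma adjusted p-values ran from 0.0928 for SLC2A2 to 0.295 for SLC7A9. Among the 3 ND and 5 control animals with the number of Control_184 or a higher one, the differences were -0.56 for HNF4A (adjusted p = 0.0993), -1.97 for SLC2A2 (0.0526), -0.58 for SLC7A9 (0.214), -0.30 for SLC7A7 (0.298), -0.57 for SLC37A4 (0.381) and -0.35 for PCK1 (0.551). The sources used here do not say what the numbers stand for, and their part in the result was not tested beyond these fits.

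**Figure D2:**
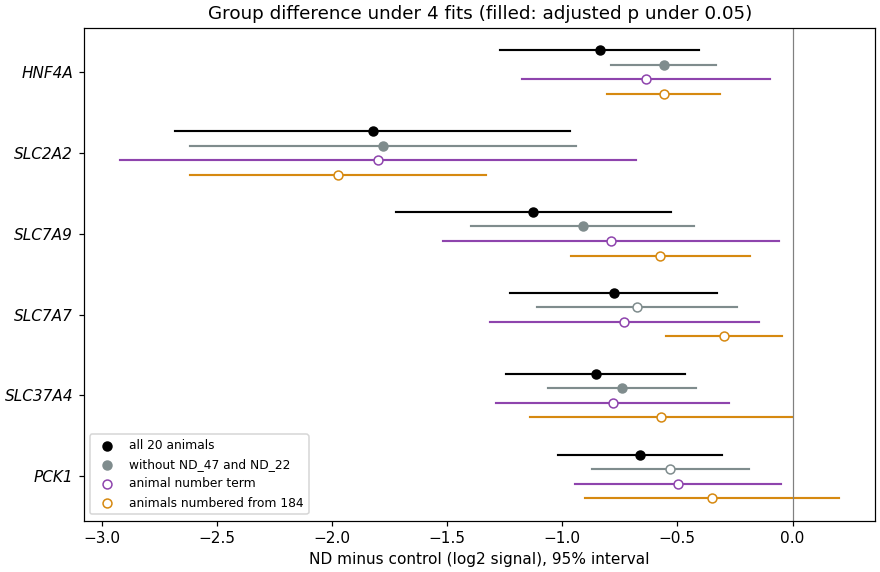
Difference between ND and control (horizontal axis, log2 signal) with its 95% interval for each gene under 4 limma fits: all 20 animals, without ND_47 and ND_22, with an animal number term, and with the 3 ND and 5 control animals with the number of Control_184 or a higher one. Filled points have an adjusted p under 0.05. All 24 estimates lie below 0, and the last 2 fits give no filled point.

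The ND animals differed more among themselves than the controls did for each of the 6 genes. The SD of HNF4A was 5.0 times as large in ND, that of SLC7A9 2.75 times and that of PCK1 2.56 times, while those of SLC37A4, SLC2A2 and SLC7A7 were 1.75, 1.5 and 1.34 times as large. Without ND_47 the ratios were 3.82 for HNF4A, 1.97 for SLC7A9, 2.36 for PCK1, 1.16 for SLC37A4, 1.38 for SLC2A2 and 1.10 for SLC7A7, so that the SDs of SLC37A4 and SLC7A7 were then close to those of controls. The spread was tested with limma on absolute deviations from the group mean over all probe sets, a test chosen after these values were seen. It was passed by PCK1 (adjusted p = 0.0483) and not by HNF4A (0.127), SLC7A9 (0.403), SLC37A4 (0.484), SLC2A2 (0.722) or SLC7A7 (0.788), while 0.396% of all probe sets were called, 0.308% with the larger spread in ND. PCK1 in ND read 13.17, 13.43, 13.53, 13.58, 13.67 and 13.75 in 6 animals and 14.44, 14.47, 14.48 and 14.51 in the other 4, which lay within the control range. Its larger spread was also called without ND_47 (adjusted p = 0.0127) and without ND_47 and ND_22 (adjusted p = 0.00682). The SD of HNF4A in ND went from 0.66 to 0.32 without those animals, against 0.13 in controls.

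Covariation of HNF4A with its 5 partners was examined within each group, where the group difference plays no part. Among ND animals Pearson's r was 0.78 with PCK1, 0.73 with SLC7A9, 0.70 with SLC37A4 and 0.66 with SLC7A7, and 0.14 with SLC2A2 (n = 10 each). Permutation p-values were 0.0042, 0.0257, 0.0242, 0.0344 and 0.736, and adjusted over the 10 relations examined PCK1 passed (0.0416), while SLC7A9, SLC37A4 and SLC7A7 did not (each 0.0698). Spearman's rho was 0.83 for PCK1 (permutation p = 0.0041, adjusted 0.0413), 0.76 for SLC37A4 (0.0139, adjusted 0.0464), 0.58 for SLC7A7 (0.0805, adjusted 0.201), 0.50 for SLC7A9 (0.147, adjusted 0.295) and -0.04 for SLC2A2 (0.911, adjusted 0.918).

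Without ND_22 and ND_47, the 2 ND animals farthest from the median of HNF4A, r was 0.76 for PCK1, 0.78 for SLC37A4, 0.77 for SLC7A7, 0.69 for SLC7A9 and -0.05 for SLC2A2 (n = 8). By exact permutation none passed then (adjusted p from 0.0516 for PCK1 and SLC37A4 to 0.903 for SLC2A2). ND_22 combined a low HNF4A of 10.99 with the highest ND value of SLC2A2, 8.02, and with values of the other partners within the ND range, such as 12.19 for SLC37A4. Without it alone, SLC37A4 (r = 0.92, adjusted p = 0.00358), SLC7A7 (0.85, adjusted p = 0.0127) and SLC7A9 (0.87, adjusted p = 0.0268) passed by exact permutation. Without ND_47 alone the relations were weaker, with r at 0.36 for SLC37A4, 0.40 for SLC7A7, 0.46 for SLC7A9 and 0.69 for PCK1, and none passed by exact permutation (adjusted p 0.174 for PCK1 and 0.388 to 0.396 for the others). SLC2A2 was then at -0.34. The values thus depended on which of ND_22 and ND_47 was left out. The fall without ND_47 was seen with ND_22 kept, while without both animals r was 0.69 to 0.78 for the partners other than SLC2A2. The call of PCK1 was lost without ND_01, ND_31, ND_47, ND_193 or ND_198 (lowest r 0.69, highest adjusted p 0.174). Among the 7 ND animals numbered up to 100, r was 0.81 with PCK1, 0.69 with SLC7A9 and SLC37A4, 0.64 with SLC7A7 and 0.12 with SLC2A2, and none passed by exact permutation (lowest adjusted p 0.175). The 3 other ND animals are too few for a value.

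Among controls no partner passed on Pearson's r. It was 0.67 for SLC7A9 (permutation p = 0.0349, adjusted 0.0698), 0.47 for PCK1 (0.164, adjusted 0.273), 0.44 for SLC37A4 (0.194, adjusted 0.277), 0.24 for SLC2A2 (0.483, adjusted 0.537) and -0.38 for SLC7A7 (0.263, adjusted 0.328). The rho of SLC7A9 passed (0.77, permutation p = 0.0131, adjusted 0.0464), while those of the others ran from -0.22 for SLC7A7 to 0.35 for SLC37A4 (adjusted permutation p 0.546 to 0.918). Without Control_155 and Control_184, the controls farthest from the median of HNF4A, r with SLC7A9 was 0.33 and did not pass by exact permutation (n = 8, p = 0.422). It was 0.65 without Control_155 alone and 0.51 without Control_184 alone, and rho was not recomputed. Among the 9 controls numbered above 100, r ran from -0.37 for SLC7A7 to 0.70 for SLC7A9, and none passed by exact permutation (lowest adjusted p 0.175). HNF4A varied little in controls, where its own 2 probe sets correlated at 0.16, against 0.92 in ND. Those of SLC37A4 correlated at 0.37 in controls and 0.96 in ND. Whether the relations differ between groups was not tested.

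**Figure D3:**
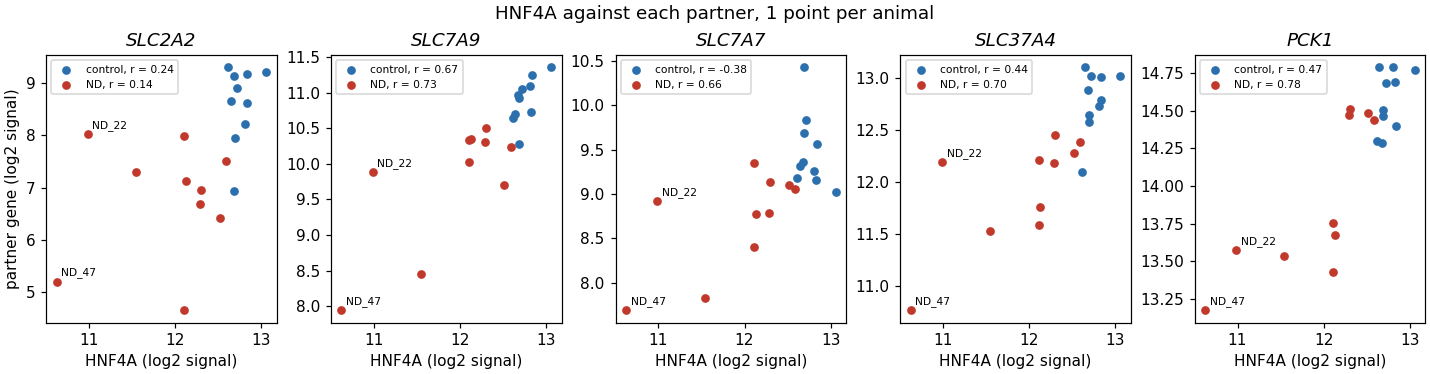
Log2 signal of each partner (vertical axis) against that of HNF4A (horizontal axis), 1 point per animal, for 10 control (blue) and 10 ND (red) animals, with Pearson's r per group. Controls sit in a narrow band of HNF4A between 12.61 and 13.06, and ND_22 lies above the course of the other ND animals in the SLC7A9, SLC7A7 and SLC37A4 panels.

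Many other probe sets moved with HNF4A among ND animals. Their median r was 0.25 in ND and 0.12 in controls, and 11% of probe sets in ND and 2.81% in controls had an r above 0.6. The r of PCK1 in ND was reached by 2.11% of probe sets, that of SLC7A9 by 3.54%, SLC37A4 by 4.98%, SLC7A7 by 6.97% and SLC2A2 by 56.7%. Ranked by r of the deviations from the group means over all 20 arrays, the 6 genes most like HNF4A among 5256 were FOXRED1 (a complex I assembly factor, r = 0.89), RGS14 (a regulator of G protein signalling, 0.88), MGST1 (microsomal glutathione transferase, 0.87), IDH1 (cytosolic isocitrate dehydrogenase, 0.86), ENPEP (the brush border aminopeptidase A, 0.84) and CENPI (a centromere protein, 0.84). Within ND alone their r ran from 0.88 to 0.96, and from 0.81 to 0.90 without ND_22 and ND_47. Within controls it ran from -0.05 to 0.53. The SD of HNF4A was 0.66 in ND and 0.13 in controls, so the ND animals weighed most in this ranking. PCK1 came at rank 68 of the 5256, SLC7A9 at 97, SLC37A4 at 213, SLC7A7 at 572 and SLC2A2 at 1802.

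The 6 genes most like HNF4A from animal to animal had group differences from -0.63 to -0.10. Of these FOXRED1 was called (-0.63 ± 0.19, SE; adjusted p = 0.0484), a call lost without any of 14 single animals, ND_22, ND_47, ND_86, ND_92, ND_100 and all controls but Control_199 (adjusted p 0.0517 to 0.0911), without ND_47 and ND_22 (-0.41, adjusted p = 0.0922) and with the animal number term (-0.36, adjusted p = 0.535). IDH1, with the highest r in ND of the 6, differed by -0.10 ± 0.26 (SE; adjusted p = 0.792), MGST1 by -0.10 ± 0.10 (SE; adjusted p = 0.496) and ENPEP by -0.24 ± 0.11 (SE; adjusted p = 0.154). RGS14 was at -0.31 (adjusted p = 0.262) and CENPI at -0.31 (adjusted p = 0.114).

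**Figure D4:**
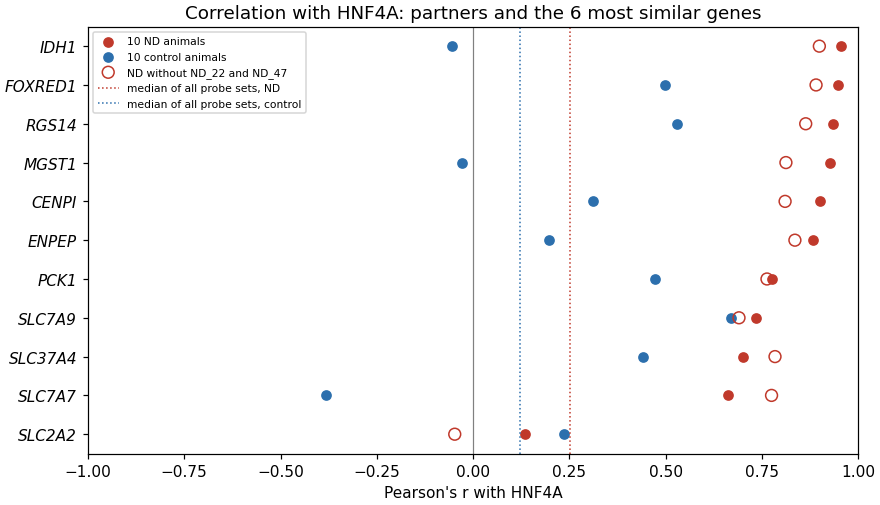
Pearson's r with HNF4A (horizontal axis) for the 5 partners and the 6 most similar genes, in 10 ND animals (red), 10 controls (blue) and 8 ND animals without ND_22 and ND_47 (open circles). Dotted lines mark the median over all probe sets, 0.25 in ND and 0.12 in controls. SLC2A2 lies at 0.14 in ND, under that median.

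The 8 proximal tubule markers had a mean level of 12.40 ± 0.49 (SD) in the 10 ND animals against 12.46 ± 0.18 (SD) in the 10 controls, and none of the 8 was called by limma (2 at an unadjusted p under 0.05). Their summed linear signal ran from 45662 to 98538 in ND and from 75534 to 95110 in controls. HNF4A followed their mean among ND animals (r = 0.84, permutation p = 0.00499, adjusted over 18 relations 0.0449, with rho = 0.63 and an adjusted p of 0.271). Without ND_22 and ND_47 r was 0.67 (n = 8), and in controls it was 0.14 (permutation p = 0.701, adjusted 0.841, with rho = 0.39 and an adjusted p of 0.477). Of 6 leukocyte markers LAPTM5, CD3E and ITGB2 were called higher, CD163 and CD14 lower, and PTPRC was not called. The dimmer probe sets of LAPTM5, CD163 and CD14 were at -0.05, -1.75 and -0.03. CD14 lost its call without any of 12 single animals (adjusted p 0.0511 to 0.0820) and ITGB2 without ND_01, Control_157 or Control_187 (adjusted p up to 0.0526). With the animal number term CD163 alone of the 5 was called (adjusted p = 0.0042), and LAPTM5 (0.134), CD14 (0.171), CD3E (0.428) and ITGB2 (0.463) were not. CD3E was at background on all controls, and the other 5 were above it on every array. Their summed linear signal was 389 to 1353 in ND and 364 to 898 in controls. HNF4A ran against their mean in ND (r = -0.82, permutation p = 0.00419, adjusted 0.0449, with rho = -0.60 and an adjusted p of 0.271), and r was -0.35 without ND_22 and ND_47 (n = 8). In controls r was 0.25 (permutation p = 0.467, adjusted 0.753, with rho = 0.47 and an adjusted p of 0.477). Of the other marker lists, the mean of 5 endothelial markers, none of them called and KDR at background on all arrays, ran against HNF4A in ND (r = -0.76, permutation p = 0.0104, adjusted 0.0468, with rho = -0.61 and an adjusted p of 0.271). Their summed linear signal was 1228 to 3567 in ND and 1616 to 2462 in controls. That of 5 fibroblast and smooth muscle markers ran against HNF4A in controls (r = -0.75, permutation p = 0.0102, adjusted 0.0468, with rho = -0.79 and an adjusted p of 0.168), and its r in ND was -0.38. Their sum was 4010 to 22133 in ND and 3623 to 14697 in controls. PDGFRB of that list was called higher (0.65, adjusted p = 0.0361, and r with HNF4A in ND of -0.80), a call lost without any of 9 single animals (0.0510 to 0.0661) and with the animal number term (0.390). The dimmer PDGFRB probe set was at -0.05. Of 3 fat markers FABP4 was called lower (-0.89, adjusted p = 0.0160) and ADIPOQ read at background on all arrays. The podocyte, red cell, adrenal cortex and distal nephron lists held no called marker and did not pass with HNF4A (adjusted permutation p of r 0.253 to 0.883). These lists say little, since 1 podocyte marker (WT1) and 1 distal nephron marker (KCNJ1, limma unadjusted p = 0.0073) were measured. Of 4 adrenal cortex markers 3 read at background on all arrays, as did AHSP of 4 red cell markers. The difference between 3' and 5' signals of 4 housekeeping probe pairs, a sign of RNA quality, did not pass between groups (adjusted permutation p 0.194 to 0.681). ND_47 had the smallest 3' minus 5' difference for ACTB, 2.60 against a control range of 3.46 to 5.30, that is, the least excess of 3' signal. The part of cell make-up and RNA quality in the members' results was not tested.

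None of 16 other proximal tubule transporters was called by limma, with 3 at an unadjusted p under 0.05 (median difference -0.03, against -0.02 over all 6765 genes). With quantile normalization SLC3A1 was called higher, and with equal array medians SLC3A1 was called higher and SLC9A3, SLC15A1 and SLC36A2, which read at background on all arrays, lower. Equal medians gave 8789 called probe sets of 23999, 7728 of them lower, so nothing is read from counts of lower calls with that scaling. SLC3A1 is the heavy chain that carries SLC7A9 to the brush border. Its mean was higher in ND, at 11.86 ± 0.44 (SD, n = 10), than in controls, at 11.33 ± 0.28 (SD, n = 10), a difference of 0.53 ± 0.16 (SE; adjusted p = 0.0526), and it passed without ND_47 (adjusted p = 0.0054) or Control_157 (0.0482). The other SLC3A1 probe set was at 0.23. The glutamate transporter SLC1A1 was at 0.35 (adjusted p = 0.148).

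Among 11 relatives of the member transporters, SLC2A3 (GLUT3, a high-affinity glucose carrier) rose, from 6.08 ± 0.73 (SD, n = 10) in controls to 7.75 ± 0.85 (SD, n = 10) in ND, a difference of 1.67 ± 0.34 (SE; adjusted p = 0.00591). All 10 ND animals lay above its control mean. It thus ran opposite to the GLUT2 gene SLC2A2, and with the animal number term it was at 1.34 (adjusted p = 0.124). The fructose carrier SLC2A5 was at -0.58 (adjusted p = 0.0830). None of the relatives was called lower, and the median difference was 0.08, or -0.01 with equal array medians, where SLC2A4, at background on all arrays, and SLC2A5 were called lower and SLC3A1 as well as SLC2A3 higher. SLC2A5 also passed without ND_22 (adjusted p = 0.0426). Of the 11 relatives 4 had an unadjusted limma p under 0.05.

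Of 20 genes of the brush border, endocytosis and tubule metabolism 17 had a negative difference, against 54.3% of all genes. An unadjusted limma p under 0.05 was seen for 5 of them. None was called higher (median -0.20) and 1 was called lower (5%, against 4.55% of all genes). It was CYP27B1, the renal enzyme that activates vitamin D, at -1.43 ± 0.39 (SE; adjusted p = 0.0324), a call lost without ND_01, ND_47, ND_92, Control_02, Control_184 or Control_199 (adjusted p 0.0505 to 0.0575) and with the animal number term (0.321). CRYL1 (-0.45, adjusted p = 0.0959) and the brush border bundling protein VIL1 (-0.38, adjusted p = 0.0988) came next, and with equal array medians both and KHK were called lower too. Without ND_47 and ND_22, the endocytic receptor LRP2 and the alkaline phosphatase ALPL were called higher.

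Of 13 other gluconeogenesis genes none was called lower and 1 was called higher (median -0.18). Of the 13, 11 had a negative difference, against 54.3% of all genes, and 7 had an unadjusted limma p under 0.05. GK, glycerol kinase, which brings glycerol into the pathway, rose from 11.15 ± 0.66 (SD, n = 10) in controls to 12.11 ± 0.57 (SD, n = 10) in ND (0.97 ± 0.27, SE; adjusted p = 0.0350), and its other probe set was at 1.10. Its call was kept with the animal number term (adjusted p = 0.0375) and lost without ND_01, ND_31, ND_86, ND_92, ND_100, ND_194, Control_02, Control_134, Control_155, Control_156, Control_157 or Control_184 (0.0510 to 0.0624). The mitochondrial aminotransferase GOT2 (-0.45, adjusted p = 0.0635) and pyruvate carboxylase PC (-0.46, adjusted p = 0.0811) did not pass. GOT2 was called lower without ND_193, Control_02 or Control_155 (adjusted p 0.0193 to 0.0492) and PC without ND_198 (0.0374). FBP1 (fructose-1,6-bisphosphatase, between PCK1 and SLC37A4 in the pathway) was at -0.27 (95% interval -0.53 to -0.01; adjusted p = 0.153). With equal array medians, where 7728 of the 23999 probe sets were called lower, PC, FBP1, MDH1, GOT1, GOT2 and SLC25A11 were called lower too.

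Of 15 regulators of gluconeogenesis 2 fell and 1 rose (median -0.03), with 5 at an unadjusted limma p under 0.05. With equal array medians, where 7728 of the 23999 probe sets were called lower, PPARGC1A, IRS1 and CEBPA were called lower too, 5 in all. Of these IRS1 and CEBPA read at background on all arrays. KLF15, a factor induced by fasting and glucocorticoids, was at -1.44 ± 0.31 (SE; adjusted p = 0.00854). FOXO1, the insulin-restrained activator of PCK1 transcription, was at -0.62 ± 0.14 (SE; adjusted p = 0.00979), and a dimmer probe set at -0.02. NR3C1, the glucocorticoid receptor, was at 0.85 ± 0.20 (SE; adjusted p = 0.0124), with dimmer probe sets at 0.37, -0.06 and -0.02. With the animal number term these 3 lost their calls (adjusted p 0.175 to 0.246).

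Of 9 other nephron transcription factors and coactivators none was called by limma, with 1 at an unadjusted p under 0.05 (median -0.03). NR2F1 (0.41, adjusted p = 0.156), FOXA2 (-0.57, adjusted p = 0.180, at background on all ND arrays) and NR2F2 (0.25, adjusted p = 0.222, with other probe sets at 0.67, 0.77 and 0.27) had the smallest p-values, and NR2F1 was called higher with the animal number term. With equal array medians RXRA and GATA4, both at background on all arrays, were called lower. Of 26 targets of HNF4A described in liver and gut 1 fell, CPT1A (the entry enzyme of mitochondrial fatty acid oxidation, -0.88 ± 0.19, SE; adjusted p = 0.00697), whose call was kept with the animal number term (adjusted p = 0.0476). Its r with HNF4A within ND was -0.06. TAT (tyrosine aminotransferase) was at -0.80 (adjusted p = 0.125) and the urea cycle gene CPS1 at background on all arrays. Of those 26 targets 10 were at background on all arrays, and 6 had an unadjusted limma p under 0.05. With equal array medians 12 were called lower, those 10, CPT1A and TAT, beside 7728 of the 23999 probe sets.

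Outside the proximal tubule, none of 6 genes of the collecting duct, distal tubule and loop of Henle was called by limma (median -0.36; 3 at an unadjusted p under 0.05), with the potassium channel KCNJ1 at -0.50 (adjusted p = 0.0758), the sodium channel subunit SCNN1B at -0.49 (adjusted p = 0.0876) and the water channel AQP3 at -0.54 (adjusted p = 0.106). With equal array medians, where 7728 of the 23999 probe sets were called lower, these 3 and SCNN1A were called lower too. SCNN1A was 1 of 2 genes of this list that read at background on all arrays. KCNJ1 was also called lower without ND_92 (adjusted p = 0.0333) and AQP3 without Control_02 (0.0440). Of 10 tubular injury genes VCAM1, an adhesion molecule of injured tubules and activated endothelium, rose (1.70 ± 0.31, SE; adjusted p = 0.00275). TIMP1 (1.43, adjusted p = 0.0895) and VIM (0.36, adjusted p = 0.102) did not pass, but TIMP1 passed without ND_47 (0.0290), without ND_47 and ND_22 (0.0329) and with equal array medians (0.0490), where SOX9, at background, was called lower. Both genes had a negative r with HNF4A within ND (-0.73 and -0.84) and within controls (-0.44 and -0.85). With the animal number term VCAM1 was at 1.58 (adjusted p = 0.0502). Of the 10 injury genes 4 had an unadjusted limma p under 0.05.

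**Figure D5:**
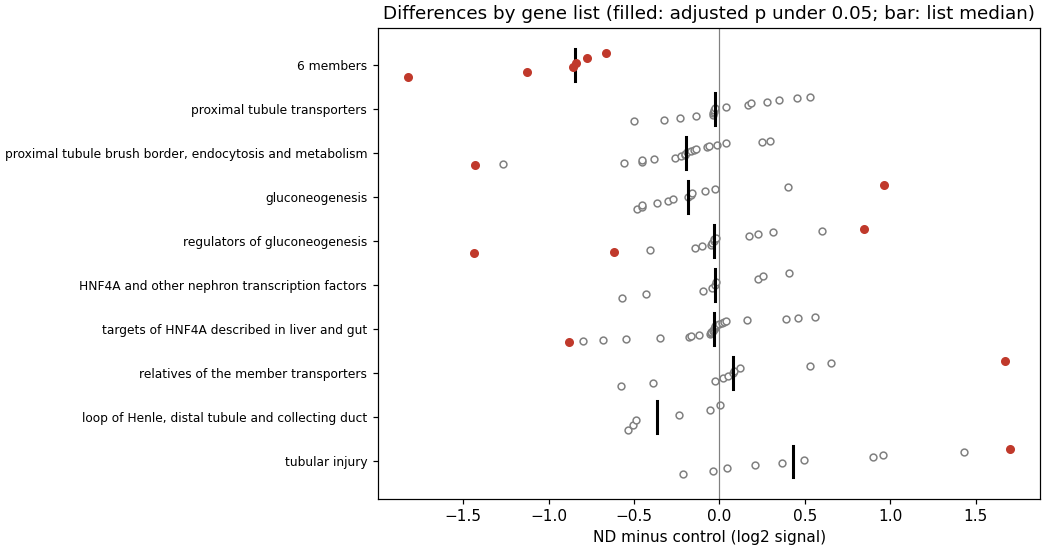
Difference between ND and control (horizontal axis, log2 signal) for the 6 members and each measured gene of 9 lists, with 10 animals per group. Filled points have a limma adjusted p under 0.05 and bars mark list medians. The members lie between -1.82 and -0.66, list medians lie between -0.36 and 0.43, and 8 points outside the members are filled.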

How the data were processed

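RNA from the kidneys of 20 pigs was hybridised to Affymetrix porcine arrays of 1 colour, 1 per animal. Groups came from the sample titles. The authors deposited log2 signals, 1 for each probe set on each array. The scale was inferred from their range (0.88 to 16.2), and the sources used here do not give the method of summarization and normalization. Of 24123 probe sets, 124 array controls were left out. Background was the highest value of the tag and tryptophan control probe sets (2.79). Genes were named from the platform annotation, and each was represented by its brightest probe set.

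limma 3.58.1 in R 4.3.3 (lmFit and eBayes) compared 10 ND with 10 control arrays without covariates. On simulated data for all 23999 probe sets, 44% of 50 changes of 0.5 (log2) and 82% of 50 changes of 1 were recovered. The changes were placed in brighter probe sets, with independent values and the same SD in both groups. The data differ from this, so these shares do not give the power for the members. Correlations within groups were tested by permutation (two-sided, 100000 resamples), exactly where fewer than 10 animals entered. Nothing says whether animals shared a litter or day, and the number of arrays limits precision. The named genes were the members, up to 3 genes per list with the smallest p, and the 6 most like HNF4A. ALPL, SLC9A3, SLC36A2, MDH1, GOT1, SLC25A11, SCNN1A, KHK, SLC2A4, PPARGC1A, IRS1, CEBPA, RXRA, GATA4 and SOX9 were named after their values were seen. Members and lists were chosen with earlier results of these data known. Alternatives covered scaling, dim probe sets, variance model, array weights, animal number, threshold, probe set and single animals.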

Additional observations from a re-analysis of the deposited data

Results flagged for a closer look

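In 4 of the 18 groups of 10 values (9 probe sets in 2 groups), the extreme animal was farther from its neighbour than Dixon's criterion allows, which chance gives in about 1 of 20 groups. HNF4A in Control_184 was 13.06, with the next control at 12.84. The brighter SLC37A4 probe set was 12.10 in Control_199, under the next control at 12.58, and the dimmer one was 9.83 in ND_47, under the next ND animal at 10.80. The SLC7A7 probe set at background read 2.01 in ND_198, with the next at 1.88, both under background.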

How the results depend on the processing

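No paired analysis was possible because the groups share no animal number. The members' differences were negative in all 42 pairs of a member and an alternative that alters the estimate, leaving out single animals aside. These pairs include the SLC7A7 probe set below background (-0.0018), which gives no measure of the gene, and a mean with it. Without single animals the difference ranged from -0.91 to -0.69 for HNF4A, -2.01 to -1.59 for SLC2A2, -1.21 to -0.92 for SLC7A9, -0.85 to -0.66 for SLC7A7, -0.93 to -0.73 for SLC37A4 and -0.73 to -0.58 for PCK1, with 5 to 6 members called. With the animal number term the differences were -0.64, -1.80, -0.79, -0.73, -0.78 and -0.50 in that order, with 0 members called (6 of 6 at an unadjusted p under 0.05) among 505 probe sets (179 higher, 326 lower). Among the 8 animals numbered from that of Control_184 upwards they were -0.56, -1.97, -0.58, -0.30, -0.57 and -0.35, with 0 members called (5 of 6 at an unadjusted p under 0.05) among 57 probe sets. At an adjusted p under 0.01 (619 probe sets) SLC37A4 was the 1 member called, and HNF4A (-0.84), SLC2A2 (-1.82), SLC7A9 (-1.13), SLC7A7 (-0.78) and PCK1 (-0.66) missed it. PCK1 missed with array weights (-0.51, adjusted p = 0.0503), and without ND_47 and ND_22 PCK1 (-0.53) and SLC7A7 (-0.68) missed. The dimmer probe sets of HNF4A (-0.84) and SLC7A7 (-0.0018, below background) missed. Called probe sets numbered 1712 as reported, 1295 to 2303 without single animals and 8789 with equal array medians (1061 higher, 7728 lower), where the median difference of all probe sets went from -0.03 to -0.12 and all 6 members passed. Quantile normalization gave 917 higher and 1198 lower calls.

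The covariation of HNF4A with PCK1 in ND missed with quantile normalization (r = 0.76), without ND_22 and ND_47 (0.76) and in the ND animals numbered up to 100 (0.81), and ranged from 0.69 to 0.86 without single animals. SLC2A2 in ND changed sign by rho (-0.043), without ND_22 and ND_47 (-0.048) and without ND_47 (range -0.34 to 0.41), and in controls without Control_155 and Control_184 (-0.19; range 0.01 to 0.42). The rho of SLC37A4 in ND (0.76) and of SLC7A9 in controls (0.77) passed where r did not. Without single animals r in ND ranged from 0.36 to 0.92 for SLC37A4, 0.40 to 0.85 for SLC7A7 and 0.46 to 0.87 for SLC7A9, and in controls from 0.33 to 0.67 for PCK1, 0.24 to 0.62 for SLC37A4, -0.54 to -0.13 for SLC7A7 and 0.51 to 0.76 for SLC7A9. The causes were not tested. Signals near background limit the dim probe sets.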
